A study of Mus musculus with 9 samples.

Results

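Isoform usage was examined in known lncRNA genes that are spliced into several isoforms, across 9 mouse liver RNA-seq libraries. The members were the known transcripts of the lncRNA table that had at least 2 exons and whose gene name stood on at least 2 such transcripts. This rule gave 2119 isoforms of 733 genes. The whole table held 26083 lncRNA transcripts, of which 7879 were known, 5396 were known and spliced, and 3277 known spliced transcripts stood alone under their gene name. The share of an isoform was its FPKM (fragments per kilobase of transcript, scaled by the authors to the mapped fragments of the library) as a percentage of the FPKM summed over all member isoforms of its gene in the same library.

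The libraries came from whole livers of mice labelled as 8 weeks old and fed for 5 weeks, with 3 mice in each of 3 groups. PF mice received an isocaloric control liquid diet, AF mice received the alcohol-containing Lieber-DeCarli liquid diet, and AF with MNA mice received the Lieber-DeCarli diet plus daily intraperitoneal MNA at 50 mg/kg. The strain label read C57BL/6 on the PF and AF libraries but C57BL/7, C57BL/8 and C57BL/9 on the AF with MNA libraries, and no source used here explains this. In whole liver, a lower level of an RNA and fewer cells of the type that makes it cannot be told apart. With 3 libraries against 3, an exact permutation test of a single value cannot go below p = 0.1, so tests were taken from limma fits over the whole lncRNA table, whose p-values measure the spread between these libraries and are given after Benjamini-Hochberg adjustment.

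Most lncRNA genes are transcribed by RNA polymerase II and spliced like protein-coding genes, and their isoforms differ in start sites, splice sites, retained introns and 3′ ends. Some hold small nucleolar RNAs or miRNAs in their introns, others lie antisense to a liver gene, and others, such as Malat1, stay in the nucleus. Where isoforms overlap, the software that quantifies short reads has to divide the shared reads between them, and only reads over bases or junctions that differ can separate them.

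Among the members, 462 genes had 2 isoforms, 139 had 3, and Gas5 had the most with 24. The median isoform was 830 bp long with 3 exons, the largest number of exons was 41, and 5 isoforms were shorter than the usual lncRNA limit of 200 bp. Of the 2119 isoforms, 2109 carried a transcript identifier of the GENCODE annotation of GRCm38. Start and end were identical there for 2062, and 161 belonged there to a gene of another name. By that annotation 297 genes were antisense, 198 were lincRNA genes and 210 were of the type processed transcript, while 129 isoforms were annotated as carrying a retained intron.

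The isoforms of 4 genes on which the results below turn are shown by the stretches that set them apart (GRCm38, minus strand in each case, written 5′ to 3′). In AW495222, an antisense gene on chromosome 13, both isoforms share the start of exon 2, after which AW495222-201 reads on for 51 bases to its end (chr13:93715384-93715434) while AW495222-202 is spliced to exon 3 (chr13:93706460-93706519). The lower-case letters are the last 30 shared bases and the capitals are the isoform's own sequence, all 51 bases in AW495222-201 and the first 60 bases of exon 3 in AW495222-202.
AW495222-201: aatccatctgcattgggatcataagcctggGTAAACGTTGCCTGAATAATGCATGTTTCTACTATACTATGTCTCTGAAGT
AW495222-202: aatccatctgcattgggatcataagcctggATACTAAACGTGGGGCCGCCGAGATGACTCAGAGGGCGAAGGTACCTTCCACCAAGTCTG
In Tug1, Tug1-201 keeps as exon the 1592 bp from chr11:3643180-3644771 that Tug1-203 splices out as an intron, and the stretch begins with gt and ends with ag. The 3 lines show in capitals the first 60 bases of the kept stretch, its last 60 bases and, for Tug1-203, the first 60 bases after the junction (chr11:3643120-3643179), with shared bases in lower case.
Tug1-201 first bases: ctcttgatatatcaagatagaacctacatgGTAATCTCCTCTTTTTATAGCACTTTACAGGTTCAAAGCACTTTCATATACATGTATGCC
Tug1-201 last bases: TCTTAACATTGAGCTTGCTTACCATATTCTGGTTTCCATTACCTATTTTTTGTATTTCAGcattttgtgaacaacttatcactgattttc
Tug1-203: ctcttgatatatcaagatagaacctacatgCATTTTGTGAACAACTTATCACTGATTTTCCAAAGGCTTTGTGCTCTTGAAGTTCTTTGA
In 0610031O16Rik, an antisense gene on chromosome 3, 3 isoforms share their exon 2 and end in different last exons. The capitals are the first 60 bases of the last exon of 0610031O16Rik-202 (chr3:138226893-138226952), of 0610031O16Rik-204 (chr3:138211193-138211252) and of 0610031O16Rik-201 (chr3:138217841-138217900), after the same 30 bases of exon 2 in lower case.
0610031O16Rik-202: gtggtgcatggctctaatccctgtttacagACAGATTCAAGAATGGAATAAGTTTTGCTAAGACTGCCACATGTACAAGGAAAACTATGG
0610031O16Rik-204: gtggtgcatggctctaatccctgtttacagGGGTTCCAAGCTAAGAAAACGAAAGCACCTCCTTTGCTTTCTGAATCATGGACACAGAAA
0610031O16Rik-201: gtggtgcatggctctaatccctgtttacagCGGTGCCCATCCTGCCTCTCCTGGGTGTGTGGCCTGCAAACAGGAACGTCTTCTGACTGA
In 4933431G14Rik, an antisense gene on chromosome 6, 4933431G14Rik-202 splices out 226 bp at chr6:72120997-72121222 that 4933431G14Rik-201 keeps. The capitals are the 60 bases that follow the shared lower-case bases in each isoform (chr6:72121163-72121222 and chr6:72120937-72120996).
4933431G14Rik-201: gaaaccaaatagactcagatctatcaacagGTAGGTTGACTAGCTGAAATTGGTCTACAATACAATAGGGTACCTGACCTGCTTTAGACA
4933431G14Rik-202: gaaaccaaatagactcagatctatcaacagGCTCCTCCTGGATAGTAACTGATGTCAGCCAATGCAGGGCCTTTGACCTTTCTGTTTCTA

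The member isoforms summed to between 754.0 and 933.0 FPKM per library without Malat1, and between 1241 and 1391 of them were above 0 in a library. Hepatocyte markers summed to between 18356.6 and 26677 FPKM per library, the other markers examined (Kupffer, sinusoidal, stellate, cholangiocyte and lymphocyte) to at most 73.7 FPKM, and none of the markers was at 0 in any library. Sinusoidal endothelial markers summed to between 13.3 and 15.0 FPKM in PF, between 13.95 and 24.6 FPKM in AF and between 19.2 and 23.1 FPKM in AF with MNA. Stellate cell markers summed to between 38.8 and 45.9, 31.5 and 52.6, and 46.9 and 60.6 FPKM in the same order. Both AF with MNA ranges lay above PF, and the part of these cells in the results was not tested. AF replicate 3 and AF with MNA replicate 1 stood apart, with 9433 and 8934 summed FPKM of unannotated intronic transcripts against 2477 to 4937 in the other 7 libraries. Some of the results that rest on them, but not all, are also given without them. Depth in reads is unknown because the deposited values are FPKM and coverage, which stood at 5.84 to 8.30 of mean coverage per unit FPKM.

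Of the 733 genes, 324 had a mean summed level of at least 0.5 FPKM, and 317 of these were above 0 in every library, so that their shares could be described throughout (1123 isoforms). The typical gene was led by 1 isoform: the isoform with the highest mean share took a median of 64.6% of its gene. It took 90% or more in 55 genes and under 50% in 79 genes. It was the longest isoform in 164 genes and the one with the most exons in 172, so that neither length nor exon number alone named the leading isoform.

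The leading isoform was often not the same one from library to library. The isoform with the highest share was one and the same in all 9 libraries for 89 of the 317 genes (28.1%), and for 104 genes in the 7 libraries without AF replicate 3 and AF with MNA replicate 1. Within a group, 174 genes had the same top isoform in all 3 PF libraries, 158 in AF and 156 in AF with MNA. The share of the leading isoform had a median within-group SD of 18.0 percentage points, while the summed level of the gene had a median within-group coefficient of variation of 38.0%.

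The spread of the shares went down with the level of the gene. The median within-group SD was 22.9 percentage points in the 130 genes of 0.5 to 1 FPKM, 19.3 in the 121 genes of 1 to 3 FPKM and 12.8 in the 66 genes above 3 FPKM. Isoforms that share most of their bases were the more variable ones: the median SD was 23.0 points in the 63 genes whose leading isoform had under 20% of its bases to itself, and 15.995 points in the 171 genes where it had at least 50%. Genes in which an intron of 1 isoform is kept as exon in another numbered 72, with a median SD of 20.9 points against 18.1 in the other 230 genes whose exons were all found. Genes whose isoforms all end within 100 bp of each other, 36 in number, had a median SD of 22.8 points against 17.8 in 266 genes with ends farther apart. The same split by start sites gave 18.35 points in 107 genes and 18.36 points in 195 genes.

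Shares also differed with the number of isoforms. In the 150 described genes with 2 isoforms the leading one took a median of 79.2%, and 62 of these genes kept 1 top isoform in all 9 libraries. In the 69 genes with 5 or more isoforms it took 37.5%, and 7 of these genes kept it.

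**Figure D1:**
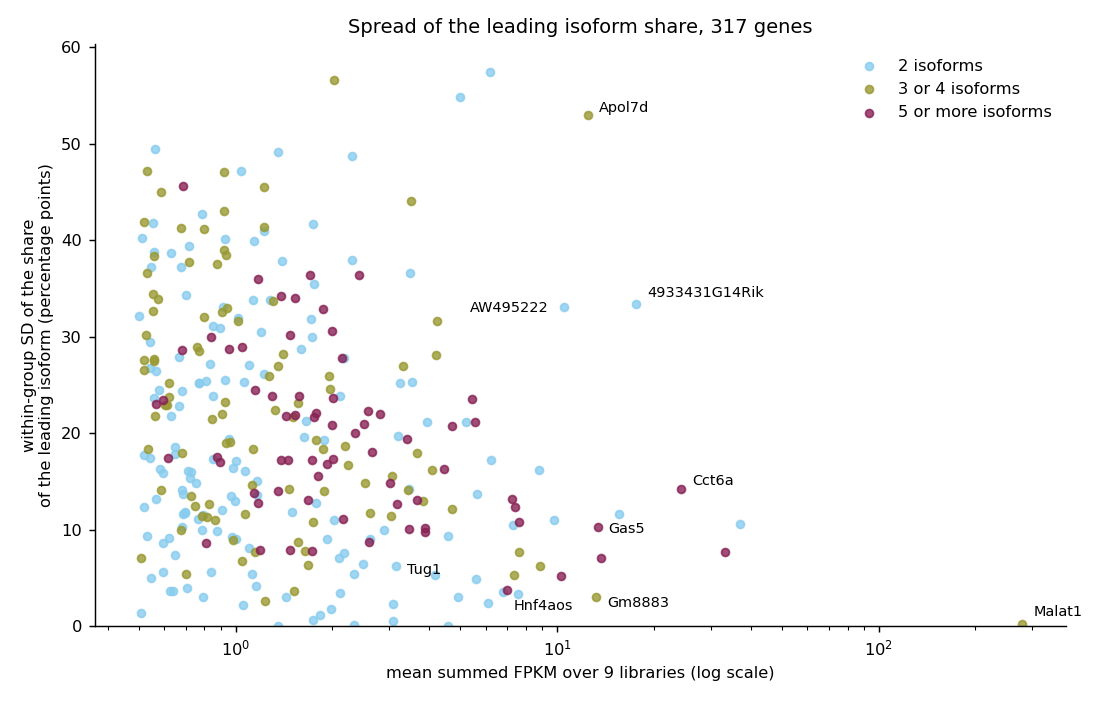
Within-group SD of the share of the leading isoform (vertical axis, percentage points, pooled over PF, AF and AF with MNA) against the mean summed FPKM of the gene (horizontal axis, log scale), 1 point for each of the 317 described genes, coloured by the number of isoforms. The median SD is 22.9 points at 0.5 to 1 FPKM and 12.8 points above 3 FPKM, while Apol7d, AW495222 and 4933431G14Rik stand high at more than 10 FPKM.

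The highest member genes differed widely in how steady they were. Malat1, a nuclear lncRNA of splicing speckles, was the highest with 159.2 to 427.4 summed FPKM. Its spliced 485-bp isoform Malat1-203 took between 98.9% and 99.6% in every library, and the long unspliced Malat1 transcript lies outside the rule. Gm4316 had a leading isoform at 65.7% to 100% but a level that ran from 0.918 to 71.0 FPKM within PF alone. Gm8883 was steady in both respects, at 10.7 to 18.2 FPKM with 66.0% to 74.2% of it in Gm8883-203.

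Several liver-expressed genes kept their isoform ratio through all 3 groups. Hnf4aos, antisense to the hepatocyte transcription factor gene Hnf4a, had 80.6% to 93.1% in Hnf4aos-203. Snhg14, a long imprinted host transcript of the Prader-Willi region, had 69.6% to 83.9% in Snhg14-213 at 6.34 to 7.62 summed FPKM. B430010I23Rik kept 51.8% to 61.3% in its leading isoform, so that a nearly even ratio was held as well as an uneven one. Gas5 and Tmem134 held their leading share less closely. In the 24-isoform gene Gas5 the leading isoform Gas5-224 took 19.3% to 48.8%, and in Tmem134, where 15 non-coding isoforms carry the name of a protein-coding gene, Tmem134-208 took 22.1% to 45.8%.

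Other genes went from 1 isoform to another between mice of the same group. An isoform moved from 80% or more to 20% or less within a group in 77 of the 317 genes (24.3%), and in 60 genes when AF replicate 3 and AF with MNA replicate 1 were left out. The number of such genes was 34 in PF, 40 in AF and 38 in AF with MNA. At least 1 FPKM of summed level was present in 37 of the 77 genes.

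4933431G14Rik, the highest of them, shows the pattern in its plainest form. 4933431G14Rik-201 took 100% in 8 libraries, whereas in AF replicate 3 it was listed at 0 and 4933431G14Rik-202 took 100%, at 18.0 FPKM and a mean coverage of 130.5. 4933431G14Rik-202 has no base of its own among its 1266 bases, and it differs from 4933431G14Rik-201 by the junction shown above, by an acceptor further in at the junction before it, and by a start site 257 bp further in. The summed level was 4.89, 10.7 and 17.9 FPKM in the PF libraries and 18.9, 27.8 and 18.0 FPKM in the AF libraries. Under AF with MNA it was 21.5, 17.5 and 21.4 FPKM. The summed level of this gene in AF replicate 3 was thus not unusual.

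Apol7d jumped in all 3 groups. Apol7d-201 took 0.806%, 80.1% and 99.1% in the PF libraries, 0.281%, 99.9% and 98.0% in the AF libraries, and 0%, 98.5% and 40.9% under AF with MNA, and Apol7d-204 took most of the remainder. The 80.1% in PF replicate 2, the 0% in AF with MNA replicate 1 and the 40.9% in AF with MNA replicate 3 rest on little RNA, since the gene summed to 0.0966, 0.0215 and 0.157 FPKM there against 13.6 to 28.0 FPKM in the other 6 libraries.

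In Cct6a, a second isoform was high in 1 AF and 1 AF with MNA library. These non-coding transcripts carry the name of a chaperonin subunit gene. The 15-exon isoform Cct6a-201 took 46.2% in AF replicate 2 and 50.5% in AF with MNA replicate 2, at 20.1 and 23.1 FPKM, and at most 1.38% in the other 7 libraries. The summed level was 43.6 and 45.7 FPKM in those libraries against 13.1 to 25.9 FPKM elsewhere. Gm12992 had the same kind of pattern, with Gm12992-201 at 97.7%, 100% and 96.6% in AF replicates 1 and 3 and AF with MNA replicate 2, and at 24.3% or less in the other 6 libraries. The gene summed to 4.96 to 7.73 FPKM in those 3 libraries and to 0.146 to 0.376 FPKM in the other 6, so the low shares rest on little RNA.

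**Figure D2:**
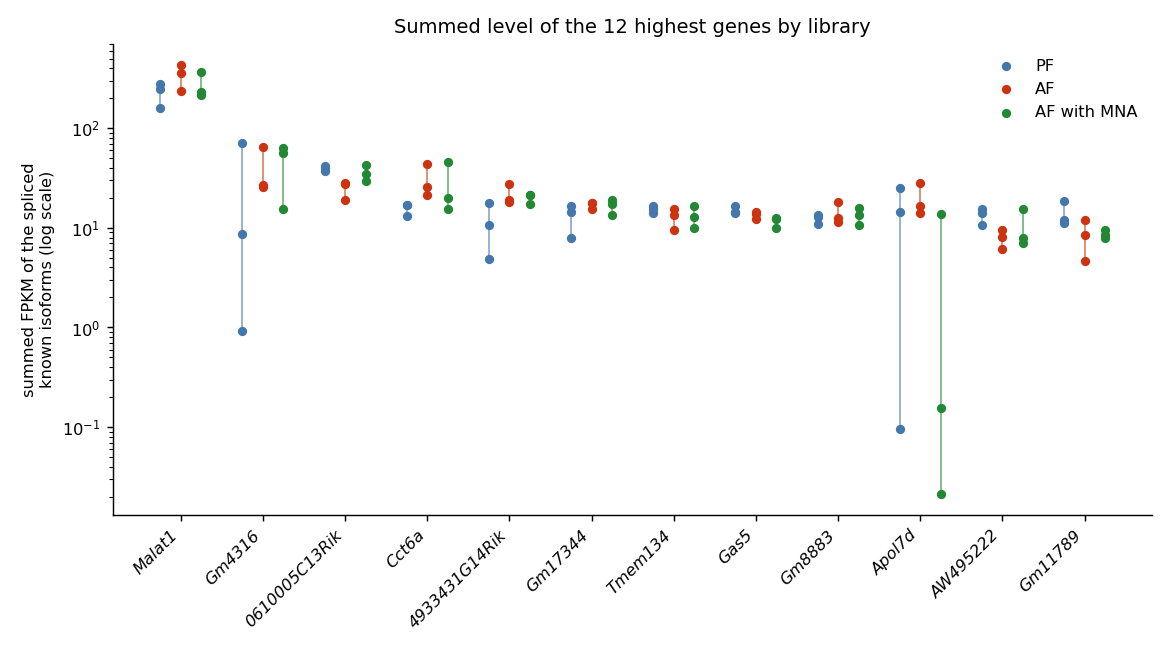
Summed FPKM of the spliced known isoforms (vertical axis, log scale) of the 12 highest member genes in each of 9 libraries, with a line from the lowest to the highest library of PF, AF and AF with MNA. Malat1 is at 159.2 to 427.4 FPKM, while the libraries of Gm4316 and Apol7d spread widest.

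The comparison of AF with PF asked which genes used their isoforms differently under the alcohol diet. A share passed the threshold at an unadjusted limma p under 0.05 and a difference of group means of at least 20 percentage points. Of 847 isoforms of 318 genes tested, 28 isoforms of 19 genes passed, 10 higher and 18 lower in AF. This was 3.31% of the members, beside 3.26% of all 4664 isoforms tested in the lncRNA table, a share near the background. Groups did not overlap for 95 isoforms (11.2%), beside 6.67% of all isoforms tested, and the median absolute difference was 10.1 points in the members and 12.1 points in all isoforms. Only the 2 isoforms of AW495222, whose shares are complements of each other, passed an adjusted p of 0.05 among the members, beside 0.0643% of all isoforms tested. A different test of exon-like usage on the same shares' FPKM values, limma's diffSplice, passed 38 isoforms (4.49%, beside 4.42% of all isoforms tested). An adjusted p under 0.05 in diffSplice was reached by 8 member isoforms, beside 0.236% of all isoforms.

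In AW495222 the deposited FPKM lay on 1 isoform in PF and on the other in AF, while its total was lower in AF by less than the level threshold requires. AW495222-201 took 99.0%, 95.1% and 98.2% in PF. Every AF library had it at a listed value of 0, and AW495222-202 took 100% there. In AF with MNA, AW495222-201 took 99.2% in replicate 1 and was listed at 0 in replicates 2 and 3. The difference between AF and PF was 97.4 percentage points, with a Benjamini-Hochberg adjusted p of 0.0445 in limma. The call at the threshold held in all 13 other settings tried, while no isoform had an adjusted p under 0.05 when any single library was left out, in the fit of all 9 libraries or with the replicate number as a block. In FPKM, AW495222-201 stood at 10.5, 14.5 and 13.8 in the PF libraries. AW495222-202 rose from 0.102, 0.748 and 0.254 FPKM under PF to 8.03, 6.20 and 9.61 FPKM under AF, a log2 ratio of 4.43 with an adjusted p of 0.0216. The summed level was 13.3 ± 2.41 FPKM in PF and 7.95 ± 1.71 FPKM in AF (SD, n = 3 each). The groups did not overlap and the unadjusted limma p was under 0.05, but this log2 ratio of -0.75 was short of the fold the level threshold requires (adjusted p = 0.702). The 2 isoforms start 41 bp apart and end 9202 bp apart, and mean coverage was 38.4 or more on whichever isoform led in each library. AW495222 was also named in the study's own results on these libraries, so its change is not independent evidence.

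In Tug1, a widely expressed lncRNA, the ratio of the isoforms differed between PF and AF without overlap, short of the threshold. The intron-keeping isoform Tug1-201 took 29.4%, 33.0% and 28.3% in the PF libraries, 70.3%, 52.4% and 70.1% in the AF libraries, and 66.9%, 69.9% and 66.2% under AF with MNA. The lowest AF library thus lay above the highest PF library. Group means were 30.3% ± 2.45, 64.2% ± 10.3 and 67.7% ± 1.96 (SD, n = 3 each). The AF minus PF difference of 34.0 points did not pass the threshold (adjusted p = 0.802). It passed at the unadjusted threshold in diffSplice, in the fit of all 9 libraries, without a minimum share, with known single-exon rows in the denominator and without AF replicate 2. The summed level was between 2.74 and 3.65 FPKM in all libraries and its log2 ratio was -0.05. The spliced isoform Tug1-203 fell at the level threshold, from a mean of 2.19 FPKM under PF to 1.08 FPKM under AF, a log2 ratio of -1.02 with an adjusted p of 0.598. The retained-intron isoforms of all members together, without Malat1, took 5.78% to 6.30% of summed FPKM in PF and 6.04% to 6.53% in AF.

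**Figure D3:**
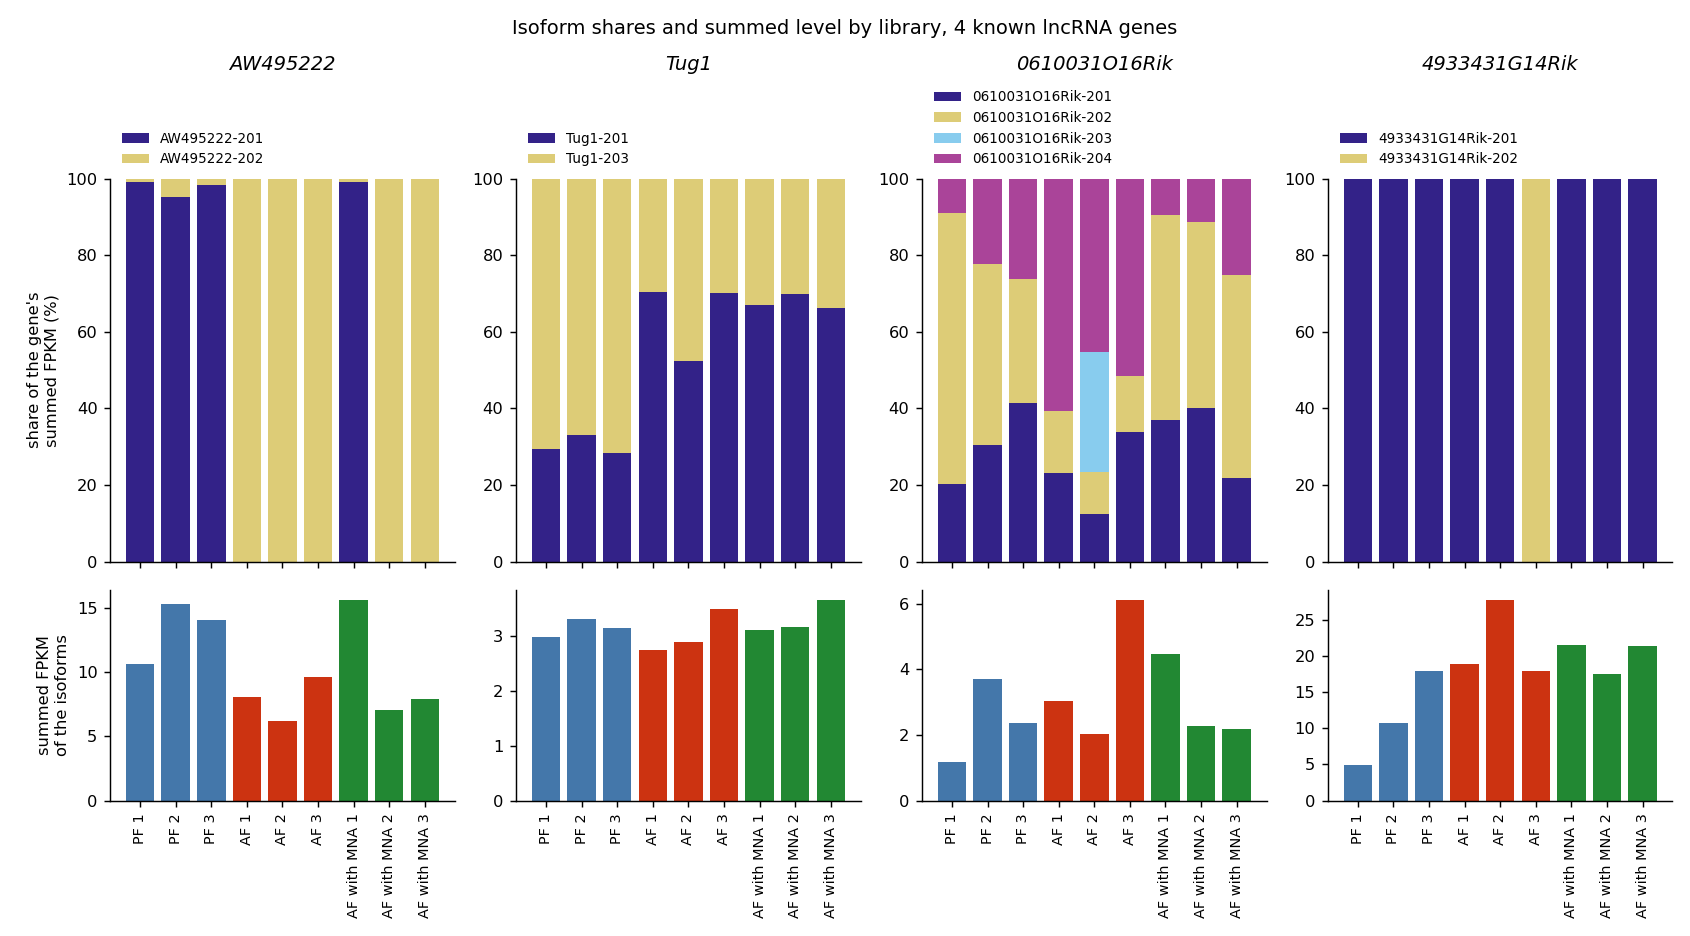
Stacked bars give the share of each isoform in its gene's summed FPKM (upper row, percent) and bars give the summed FPKM (lower row, from 0) in each of 9 libraries for AW495222, Tug1, 0610031O16Rik and 4933431G14Rik. AW495222-201 leads in the PF libraries and AF with MNA replicate 1, Tug1-201 lies at 28.3% to 33.0% in PF and at 52.4% to 70.3% in the others, and 4933431G14Rik-202 appears in AF replicate 3 alone.

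The other genes of at least 1 FPKM with an isoform past the share threshold each had an adjusted p of 0.802, so these calls rest on the unadjusted threshold. Tbx3os1, on the opposite strand of the gene for the transcription factor Tbx3, used less of its 2-exon isoform Tbx3os1-204. This isoform took 60.8%, 70.4% and 78.0% in the PF libraries and 0%, 21.7% and 0% in the AF libraries, a difference of -62.5 points, while the gene summed to 0.401 to 1.79 FPKM across PF and AF. This call held in all 12 other settings that gave a value.

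In 1700028E10Rik, a lincRNA gene, 1700028E10Rik-203 took 60.7%, 64.5% and 70.2% in the PF libraries and 7.00%, 36.9% and 20.7% in the AF libraries, a difference of -43.6 points. Here the whole gene fell too, from 3.48 ± 0.627 to 0.952 ± 0.272 summed FPKM (SD, n = 3 each). Without AF replicate 1 or PF replicate 3 the share call was lost, at -36.3 and -41.1 points, as it was with a logit transform. The call held in the 10 other settings, diffSplice among them, and the lowest unadjusted limma p in these was 1.28e-06.

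2310001H17Rik-204 took 75.9%, 52.2% and 45.7% in the PF libraries and 10.5%, 19.5% and 23.8% in the AF libraries, a difference of -40.0 points. The call was lost without AF replicate 1, AF replicate 2 or PF replicate 1 and with a logit transform. Airn-201, of the imprinted transcript antisense to Igf2r, took 31.0%, 11.5% and 26.5% in PF and had a listed value of 0 in every AF library, a difference of -23.0 points. Without PF replicate 1 the difference was -19.0 points, under the 20 points required, and the call was also lost with a logit transform.

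In Gm20186 the pair of isoforms exchanged the lead. Gm20186-201 took 93.6%, 55.7% and 96.8% in the PF libraries and 40.7%, 38.0% and 46.1% in the AF libraries (difference -40.4 points, or -18.6 points with known single-exon rows in the denominator, where the call was lost). The gene also fell from 3.27, 1.01 and 5.62 to 0.517, 0.170 and 0.291 summed FPKM, so the AF shares rest on little RNA. The share call was lost with a logit transform and without any of 5 single libraries, PF replicate 2 being the exception.

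Snhg5-202, Gm12992-201 and the 822-bp isoform Gt(ROSA)26Sor-203 passed in the same comparison with less even libraries. Snhg5-202 took 13.4%, 0% and 0% in the PF libraries and 100%, 26.2% and 34.2% in the AF libraries, and the 100% was reached in AF replicate 1 at a summed level of 0.287 FPKM. The Snhg5-202 difference went from 49.0 to 25.8 points without AF replicate 1, and its call was lost then, without PF replicate 2 or 3 and in diffSplice. Gm12992-201 lost its call without any single library but AF replicate 2, and its PF shares rest on a summed level of at most 0.376 FPKM. Gt(ROSA)26Sor-203 took 90.5%, 0% and 100% in PF and had a listed value of 0 in every AF library, and this call was lost without any single library but PF replicate 2 and with no minimum share.

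The same top isoform was found in all 3 PF libraries and another in all 3 AF libraries in 7 of the 115 genes that had 1 top isoform in each group. This was 6.09%, beside 6.12% of the 147 such genes in the whole lncRNA table, most of which were members, and the same count was 4 of 115 genes (3.48%, beside 5.19%) in AF with MNA against AF. Besides AW495222, Tug1 and Gm20186 the 7 genes included Junos, the antisense neighbour of the Jun proto-oncogene. Junos-207 took 26.9%, 33.7% and 39.7% in the PF libraries and 61.3%, 68.3% and 45.3% in the AF libraries, and 49.0% to 52.8% in AF with MNA. The Junos difference of 24.8 points between AF and PF missed the threshold. Gm8378-203 took 31.6% to 36.1% in PF and 48.3% to 67.0% in AF, and 2010001A14Rik-203 took 57.4% to 100% in PF and 29.6% to 43.7% in AF. Neither of these passed in the main test.

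**Figure D4:**
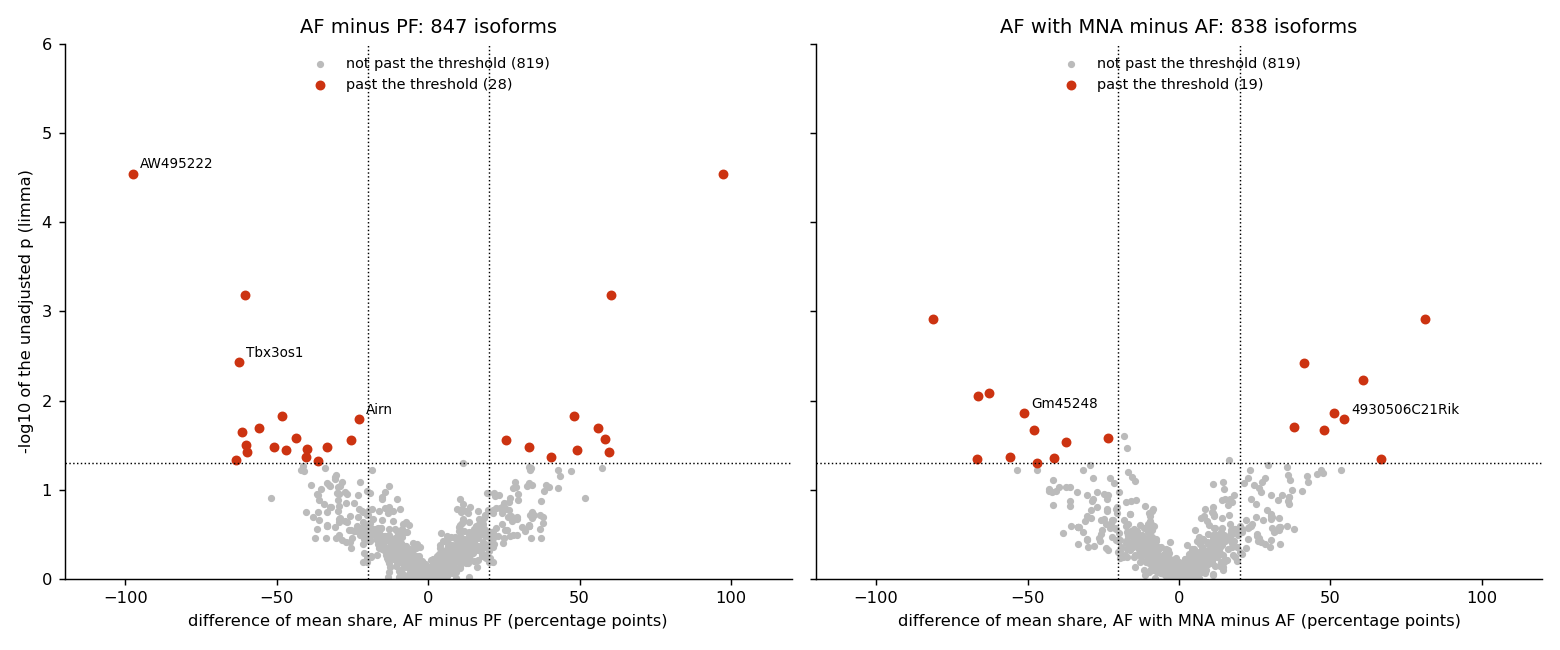
Difference of group mean shares (horizontal axis, percentage points) against -log10 of the unadjusted limma p (vertical axis) for the member isoforms tested in AF against PF (847) and in AF with MNA against AF (838), with dotted lines at the thresholds. The 28 and 19 isoforms past the thresholds are in red, and both AW495222 isoforms stand above the rest in the left panel.

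For isoform levels, the threshold of the methods (a log2 ratio above 1 or below -1 with an unadjusted p under 0.05) was passed by 35 of 1071 member isoforms in AF against PF. This was 3.27% beside 2.47% of all 18310 transcripts tested. Of the 35, 8 were higher (beside 1.41% of all transcripts higher) and 27 lower (beside 1.06% lower). An adjusted p under 0.05 was reached by the 2 AW495222 isoforms alone among the members, beside 0.0164% of all transcripts tested. For summed levels, 20 of 550 genes passed (3.64% beside 3.88% of all 9746 lncRNA genes), 8 higher and 12 lower (beside 2.5% higher and 1.37% lower), and none passed an adjusted p of 0.05 in limma, with 26 at an unadjusted p under 0.05 (beside 4.11% of all lncRNA genes). With libraries scaled to a common median 26 genes passed, 17 of them among the 20, with 5 higher and 21 lower (beside 2.08% and 1.97% of all lncRNA genes).

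The comparison of AF with MNA against AF used the same AF libraries, so the 2 comparisons are not independent. Of 838 isoforms of 310 genes, 19 isoforms of 13 genes passed the share threshold, 8 higher and 11 lower. This was 2.27%, beside 3.29% of all 4617 isoforms tested, below the background. Groups did not overlap for 67 isoforms (8.00%, beside 6.35%). The diffSplice test passed 31 isoforms (3.7%, beside 3.49% of all isoforms tested). None passed an adjusted p of 0.05 in limma or in diffSplice, with 22 at an unadjusted limma p under 0.05 (beside 3.66% of all isoforms tested). In levels, 9 of 1041 isoforms passed (0.865% beside 1.75%), 5 higher and 4 lower (beside 0.633% and 1.11%), and in summed levels 6 of 538 genes (1.12% beside 2.11%), 4 higher and 2 lower (beside 0.65% and 1.46%), the lower ones being Apol7d and Hnf4aos. Apol7d fell from 19.6 to 4.60 FPKM (log2 ratio -2.09), and the log2 ratio went to -7.78 without AF with MNA replicate 2. The call was lost without any other single library, in the fit of all 9 libraries and without AF replicate 3 and AF with MNA replicate 1 together. Median scaling also gave 9 isoform-level calls, 5 of them shared with the 9 above, with 8 higher and 1 lower (beside 0.861% and 1.06% of all transcripts). None of the unscaled calls passed an adjusted p of 0.05 in limma, with 11 isoforms (beside 1.81% of all transcripts) and 7 genes (beside 2.15%) at an unadjusted p under 0.05.

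0610031O16Rik was named in both comparisons, through its last exon. 0610031O16Rik-202 took 70.8%, 47.0% and 32.5% in the PF libraries, 15.98%, 10.9% and 14.5% in the AF libraries, and 53.5%, 48.6% and 53.1% under AF with MNA. 0610031O16Rik-204 went the other way, with 9.01%, 22.4% and 26.2% in the PF libraries, 60.7%, 45.3% and 51.6% in the AF libraries, and 9.57%, 11.3% and 25.1% under AF with MNA. The AF libraries lay apart from both other groups for each of these isoforms. For 0610031O16Rik-202 the difference was -36.3 points in AF against PF (adjusted p = 0.802) and 38.0 points in AF with MNA against AF (adjusted p = 0.804), both past the unadjusted threshold. For 0610031O16Rik-204 the differences were 33.4 points, short of the threshold, and -37.2 points, past it.

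The gene as a whole did not pass in either comparison, at summed levels of 1.16 to 6.13 FPKM. The call of 0610031O16Rik-202 in AF against PF was lost with a logit transform and without any single library but PF replicate 3, and the call in AF with MNA against AF was lost (at 37.5 points) when AF replicate 3 and AF with MNA replicate 1 were both left out. 0610031O16Rik-201, with its own last exon, took 12.5% to 41.3% and did not pass in either comparison.

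Gm45248, listed as Gm42067 in GENCODE and lying antisense on chromosome 19, gave the smallest p of the share tests in AF with MNA against AF among genes of at least 1 FPKM. Its 647-bp isoform took 74.8%, 66.2% and 79.1% in the AF libraries, against 42.4%, 9.94% and 14.0% under AF with MNA (difference -51.3 points, adjusted p = 0.804). In PF the same isoform took 0.791%, 100% and 7.46%, so the PF libraries did not share 1 state. The summed level was 0.913, 0.670 and 0.423 FPKM in the AF libraries, against 1.31, 3.11 and 2.13 FPKM under AF with MNA, past the level threshold at a log2 ratio of 1.71 (adjusted p = 0.773). In the fit of all 9 libraries the share call was lost, and with the replicate number as a block the summed-level call was lost.

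4930506C21Rik also changed in both measures. 4930506C21Rik-201 took 0%, 0% and 43.3% in the AF libraries, against 75.0%, 62.6% and 68.7% under AF with MNA (54.4 points), at 0%, 43.4% and 63.7% in PF. Its summed level was 0.492, 1.01 and 2.41 FPKM in the AF libraries, against 3.25, 2.45 and 3.70 FPKM under AF with MNA (log2 ratio 1.26, adjusted p = 0.773). The share call was lost without AF replicate 1, AF replicate 2 or AF with MNA replicate 1. The summed-level call was lost with the replicate number as a block. 2310015A10Rik-201 took 82.6% to 92.6% in the PF and AF libraries and 0%, 80.5% and 18.3% in AF with MNA (-55.9 points). The AF with MNA libraries thus differed among themselves, the call was lost without any single library but AF with MNA replicate 2, and it was lost without AF replicate 3 and AF with MNA replicate 1 together. 5530601H04Rik-213 and Snhg5-202 also passed. The first call was lost without any single AF with MNA library, and the second was lost without AF replicate 1 or 3 or any single AF with MNA library. Both were also lost without AF replicate 3 and AF with MNA replicate 1 together, the first with a logit transform and in the fit of all 9 libraries, and the second in diffSplice.

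AW495222 and Tug1 did not pass in AF with MNA against AF. The AW495222-201 difference was 33.1 points and came from AF with MNA replicate 1, in which unannotated intronic signal was also high. The Tug1-201 difference was 3.46 points. A p above the threshold does not show that these shares were equal.

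**Figure D5:**
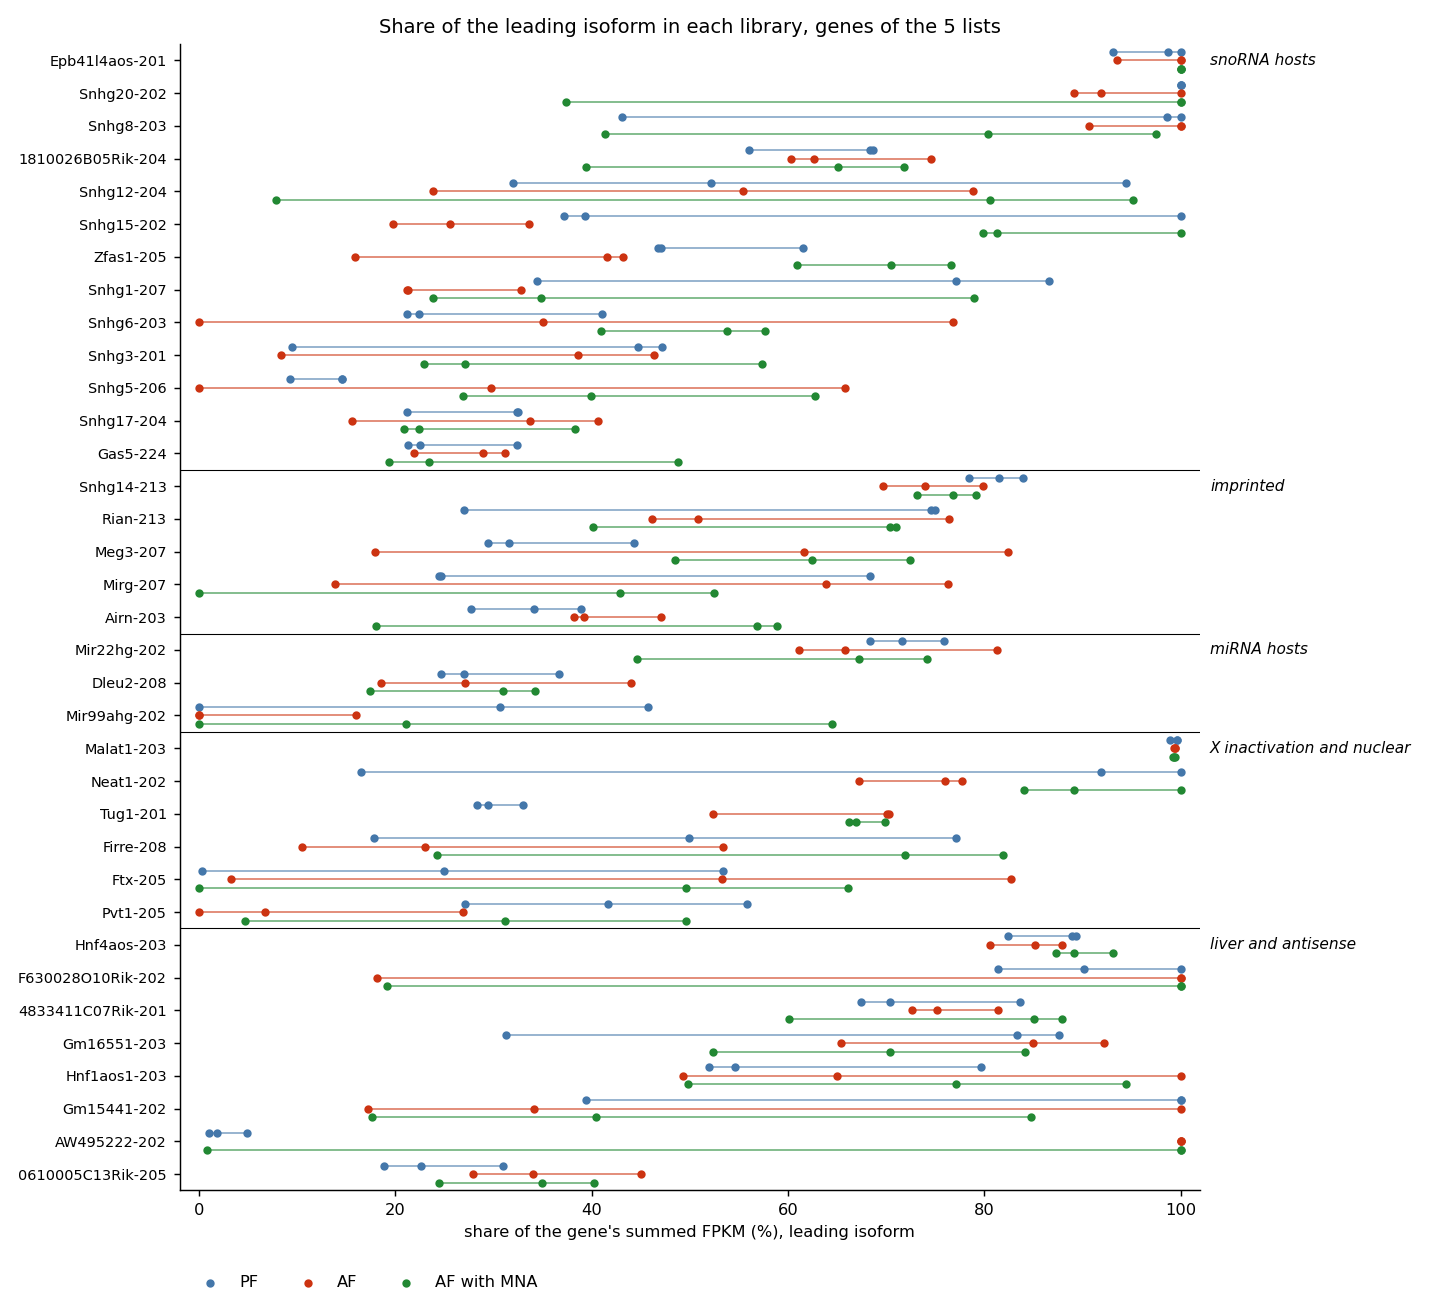
Share of the leading isoform in each library (horizontal axis, percent of the gene's summed FPKM), with a line from the lowest to the highest library, for the described genes of the 5 gene lists in PF, AF and AF with MNA. Malat1-203, Epb41l4aos-201 and Hnf4aos-203 are narrow, Tug1-201 is separated between PF and the other groups, and Snhg12-204, Ftx-205 and F630028O10Rik-202 spread over most of the axis.

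Genes were further grouped by role, in lists that include genes the study itself picked on these libraries (AW495222, 0610005C13Rik and Rian among them), so that their counts are not independent evidence. The counts stand beside 3.26% of all isoforms past the share threshold in AF against PF and 3.29% in AF with MNA against AF, and, for levels in AF against PF, beside 1.41% of all transcripts higher and 1.06% lower, and with so few isoforms in a list none of them is read as differing from these shares. Among hosts of small nucleolar RNAs, whose introns carry the functional RNA, 13 of 20 listed genes were members, with 91 isoforms. The top isoform was the same in all 9 libraries in 2 of the 13. In AF against PF, 1 of 49 isoforms passed the share threshold (Snhg5-202), and 2 of 72 fell in level (Snhg1-207 and Gas5-219). Snhg1-207 took 34.4%, 77.1% and 86.6% in the PF libraries and 21.2%, 21.3% and 32.8% in the AF libraries, and its level went from 2.04, 4.86 and 6.11 FPKM to 1.17, 0.904 and 1.27 FPKM (log2 ratio -1.96 for this isoform of Snhg1, adjusted p = 0.598). No base of Snhg1-207 is its own, and the share difference of -40.9 points did not pass. The median log2 ratio of the summed levels of the 13 hosts was -0.15, beside 0.19 for all lncRNA genes tested.

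In AF with MNA against AF, 2 of 53 host isoforms passed the share threshold, Snhg5-202 and Snhg15-202. Snhg15-202 took 37.1%, 100% and 39.3% in the PF libraries, 19.8%, 25.5% and 33.6% in the AF libraries, and 100%, 79.9% and 81.3% under AF with MNA. The rise against AF was 60.7 points (adjusted p = 0.690), at summed levels of 0.346 to 1.43 FPKM. The lowest of these levels was in AF with MNA replicate 1, and this call was not followed through the other settings. The hosts ranged from steady to changeable: Epb41l4aos-201 took 93.1% to 100% in all libraries, Snhg20-202 took 89.2% to 100% in 8 libraries and 37.4% in AF with MNA replicate 2, and Snhg12-204 took 7.84% to 95.1%.

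Among imprinted lncRNAs, 6 of 9 listed genes were members, with 49 isoforms, and 1 of 20 tested isoforms passed the share threshold in AF against PF (Airn-201). The summed levels of Meg3, Rian and Mirg, which lie in 1 imprinted cluster on chromosome 12, rose from 0.882, 0.728 and 0.337 FPKM in PF to 7.04, 9.11 and 1.62 FPKM in AF (adjusted p 0.702, 0.625 and 0.702), and the Mirg call was lost without PF replicate 1, 2 or 3 or AF replicate 1 or 3. Their leading isoforms did not separate the groups: Rian-213 took 26.9% to 75.0% in PF and 46.2% to 76.4% in AF, and Meg3-207 took 29.5% to 44.3% and 17.9% to 82.4%. The median log2 ratio of the summed levels was 2.27 over the 5 genes tested, beside 0.19 for all lncRNA genes. In AF with MNA against AF none of the 20 isoforms passed the share threshold.

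Among miRNA hosts, 6 of 10 listed genes were members and 3 were at 0.5 FPKM or more. None of 14 isoforms passed the share threshold in AF against PF and none of 17 in AF with MNA against AF in limma. Mir22hg, the host of miR-22, had 44.6% to 81.3% in Mir22hg-202 at 6.47 to 15.7 summed FPKM. In Mir99ahg, with 10 isoforms, the leading isoform Mir99ahg-202 took 0% to 64.5%.

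Among X-inactivation and nuclear lncRNAs, 8 of 14 listed genes were members, none of 21 isoforms passed the share threshold in AF against PF and none of 23 in AF with MNA against AF, and Tug1-203 was the 1 of 21 isoforms that fell in level in AF. Ftx and Firre, both X-linked, were among the changeable genes. Ftx-205 took 0.295%, 24.9% and 53.4% in the PF libraries, 53.2%, 82.8% and 3.28% in the AF libraries, and 0%, 66.1% and 49.6% under AF with MNA. Firre-208 took 17.9% to 77.1% in PF alone.

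Among liver and antisense lncRNAs, 8 of 14 listed genes were members. In AF against PF, 2 of 21 isoforms passed the share threshold, both of AW495222, while 1 of 24 rose and 2 fell in level (AW495222-202, AW495222-201 and 0610005C13Rik-209). In AF with MNA against AF no share passed among 21 isoforms. In level, 2 of 24 isoforms fell (beside 1.11% of all transcripts lower), both of Hnf4aos. The gene summed to 15.2, 4.75 and 11.6 FPKM in the AF libraries, against 5.05, 3.19 and 3.83 FPKM under AF with MNA, a log2 ratio of -1.38 (adjusted p = 0.773), with 1 AF library inside the range of the other group. That call was lost without AF replicate 1 or 3 or AF with MNA replicate 2 or 3, without AF replicate 3 and AF with MNA replicate 1 together, in the fit of all 9 libraries and with median scaling. F630028O10Rik-202 took 81.3% to 100% in 7 libraries and 18.1% and 19.1% in AF replicate 1 and AF with MNA replicate 3.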

How the data were processed

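Total RNA from liver was depleted of rRNA and sequenced as strand-specific, paired-end libraries. The submitters' processing notes name cutadapt 1.9, FastQC, HISAT2, StringTie 1.3.4, TopHat and edgeR, with no role given, and the genome build and whether strand was used in quantification are not given in the sources used here. The deposited FPKM values (genes and lncRNA transcripts), the coverage of each lncRNA transcript (a signal column) and the circRNA junction read counts were made by the authors and used as deposited. The authors' own comparison columns hold fold changes and p-values and were not used.

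Shares were computed per library from FPKM, and transcripts were matched by identifier to the GRCm38 GENCODE annotation, with sequences read from GRCm38. Shares were tested with limma 3.58.1 in R 4.3.3 after an arcsine square root transform, over all lncRNA genes with several rows of the same class, a mean summed level of at least 0.5 FPKM, a sum above 0 in every library compared, and isoforms of at least 5% mean share. Levels whose mean reached 0.1 FPKM were tested on log2(FPKM + 1), while fold changes are log2 ratios of group means. Tests were 2-sided and p-values were adjusted by Benjamini-Hochberg over the whole fit. The main share and level fits of AF against PF were also run on simulated data. The simulated shares spread less than the median spread of the deposited ones, and the alternative settings were not simulated. Only the groups compared entered each fit. Tables and figures were made with Python 3.11.15, pandas 2.3.3, numpy 2.4.6 and matplotlib 3.10.9.

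The members and gene lists were chosen with earlier results of these data known. The named genes are the 12 highest by level, up to 12 per comparison of at least 1 FPKM with the smallest p past the share threshold, list genes of at least 0.5 FPKM, isoforms past an adjusted p of 0.05 in level, and genes of at least 1 FPKM whose top isoform was one in every library of 1 group and another in every library of the other. B430010I23Rik was named after its values were seen. The alternatives were another transform, minimum level, minimum share, pseudocount, denominator, scaling, test and set of libraries. The set without AF replicate 3 and AF with MNA replicate 1 was added after seeing the data.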

Additional observations from a re-analysis of the deposited data

Results flagged for a closer look

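The circRNA counts, which the comparisons above did not use, held signal from 14 circRNAs that carry the identifier or name of a member, of 4486 in the table, with 61 junction reads in all. For 2 of them a treated library exceeded every PF library by more than the 3 reads that a count of 0 allows. The circRNA assigned to Pvt1 (ENSMUST00000182956) had 9 junction reads in AF replicate 2, at most 3 in a PF library and 27 over all libraries. The circRNA assigned to 9030622O22Rik (ENSMUST00000129082) had 10 junction reads in AF replicate 3, at most 1 in a PF library and 11 over all libraries, so nearly all of its reads came from the library with the highest unannotated intronic signal. These values were not tested, and each group has 3 libraries, too few for a check of single outlying samples.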

How the results depend on the processing

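Counts of calls moved with the processing. After each count, the first percentage is the share of members called and the second that of all features tested. Share calls in AF against PF went from 28 to 13 with a logit transform (1.53%, 3.52%), to 7 at a summed level of at least 2 FPKM (2.61%, 2.97%), and to between 13 (without AF replicate 1, 1.53%, 4.11%) and 41 (4.77%, 4.98%) when 1 library was left out. Isoform-level calls went from 35 to between 21 (without PF replicate 1, 1.99%, 2.27%), 23 (without AF replicate 1, 2.16%, 2.93%) and 46 (4.41%, 3.63%) with 1 library left out, to 51 with any value above 0 (2.53%, 2.16%) and to 36 of the 361 isoforms of at least 0.5 FPKM (9.97%, 7.6%). Summed-level calls went from 20 to between 12 (without PF replicate 1, 2.19%, 3.68%), 13 (without PF replicate 2, 2.35%, 3.43%) and 26 (4.74%, 6.16%). Share calls in AF with MNA against AF went from 19 to 32 with no minimum share (2.94%, 1.99%), 6 at 2 FPKM or more (2.11%, 3.17%), 31 in diffSplice (3.7%, 3.49%), and, with 1 library left out, between 14 (1.68%, 4.62%) and 31 (without AF replicate 3, 3.83%, 4.46%), with 30 without AF with MNA replicate 2 (3.58%, 4.71%) and 29 without AF replicate 2 (3.41%, 4.45%). Isoform-level calls went from 9 to 16 with a pseudocount of 0.1 (1.54%, 3.03%), 15 with any value above 0 (0.742%, 1.56%), 17 in the fit of all 9 libraries (1.63%, 3.16%), 16 without AF replicate 3 and AF with MNA replicate 1 (1.56%, 3.09%), and, with 1 library left out, between 9 (0.871%, 2.11%) and 17 (without AF with MNA replicate 2, 1.63%, 1.54%), with 14 without AF replicate 2 (1.33%, 2.23%). Summed-level calls went from 6 to 11 with any value above 0 (1.51%, 2.09%), 3 with median scaling (0.558%, 2.39%), 15 without AF replicate 3 and AF with MNA replicate 1 (2.78%, 5.23%), and, with 1 library left out, between 1 (without AF with MNA replicate 3, 0.187%, 2.01%) and 7 (1.29%, 3.41%), with 3 without AF replicate 2 (0.555%, 3.43%). The cause was not tested. Directions turned in log2 ratios that had not passed. Leaving out 1 library put the summed level in AF against PF between -0.029 (without PF replicate 2) and 1.42 (without PF replicate 1) for Apol7d, and between -0.16 (without AF replicate 3) and 0.021 (without AF replicate 1) for Tug1. In AF with MNA against AF the range was -0.55 (without AF with MNA replicate 3) to 0.46 (without AF replicate 2) for Meg3, -0.82 (without AF replicate 2) to 0.025 (without AF replicate 3) for Mirg, and -0.097 (without AF with MNA replicate 1) to 0.56 (without AF with MNA replicate 2) for AW495222. Meg3 stood at 0.020 with median scaling, and the level of AW495222-202 at 0.062 without AF replicate 3 and AF with MNA replicate 1.

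The replicate number shared between groups did not pair the libraries, since same-numbered libraries correlated at -0.0497 to 0.0826 after group means were removed. With the replicate number as a block, calls numbered 22 (shares, 2.6%, 2.64%), 31 (isoform levels, 2.89%, 2.39%) and 16 (summed levels, 2.91%, 3.42%) in AF against PF, and 19 (2.27%, 2.99%), 12 (1.15%, 1.6%) and 2 (0.372%, 1.59%) in AF with MNA against AF. The calls lost with this block, among those followed through every setting, were the shares of 2310001H17Rik-204, Gm12992-201, Gm20186-201 and 0610031O16Rik-202 and the summed level of Mirg in AF against PF, and the shares of 2310015A10Rik-201 and 4930506C21Rik-203 in AF with MNA against AF. The 4 higher summed-level calls in AF with MNA against AF, Gm45248 and 4930506C21Rik among them, were also lost. Without counts, the number of reads behind a share of a gene below 1 FPKM is unknown. The mean coverage was 5.84 to 8.30 per unit FPKM.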
